A study of Mus musculus with 16 samples.

Results

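AP_8 is a cluster of cells from mouse brown adipose tissue whose name is read here as adipocyte progenitor, and its members were all the cells that carry this name in the authors' annotation. There were 1002 such cells among 24352 named cells and 109723 cells in all. They stood beside 992 AP_9, 271 AP_25 and 249 AP_26 cells, so AP_8 made up 1002 of 2514 AP cells. The authors profiled the stromal vascular fraction, the cells left once the fat cells have been floated off digested interscapular tissue, by droplet single-cell RNA sequencing. All mice were C57BL6J. Housing was at 30 °C for 1 week (thermoneutral), at 22 °C for 1 week (room temperature), or at 5 °C for either 2 days or 7 days, with 4 libraries each, to follow the cell make-up of the tissue as it is remodelled in the cold. No transgene or deletion is given in the labels, and they do not say whether a library is 1 mouse or a pool.

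Adipocyte progenitors are fibroblast-like cells of the tissue stroma that can divide and turn into fat cells. Pdgfra, a receptor for platelet-derived growth factor, and Cd34, a surface sialomucin, are used as their markers, and Dpp4, a surface peptidase, together with Pi16, a secreted-protein family member, marks a less committed population known from mouse subcutaneous fat. In brown fat, which burns fuel to make heat, cold is known to recruit new adipocytes from progenitors. The tables analysed here held annotations of each cell and no gene values, so the name AP_8 could not be checked against Pdgfra, Dpp4, Pi16 or Cd34, and AP_8 is used below as a label.

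None of the cells of 2-day cold replicate 1 carried a name, which leaves replicates 2 to 4 of that housing and 4 libraries of each of the others. The 15 libraries held 357 to 3739 named cells each, and named cells made up 7.13% to 59.1% of a library. No AP_8 barcode occurred in more than 1 library, while 1537 of 108170 barcodes did over all cells. The number of AP_8 cells was uneven. Thermoneutral replicates 1 to 4 held 176, 7, 12 and 28, room temperature 37, 55, 51 and 21, 2-day cold replicates 2 to 4 held 133, 61 and 227, and 7-day cold 33, 114, 24 and 23. A single library thus gave 78.9% of the thermoneutral AP_8 cells, 53.9% of those of 2-day cold and 58.8% of those of 7-day cold. All comparisons below are therefore over libraries and not over cells.

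AP_8 cells had a moderate depth and, like the other AP clusters, a low mitochondrial share. A median AP_8 cell held 5161 unique molecular identifiers (UMIs, counted RNA molecules), with quartiles of 2673 and 9169.5 and a range from 801 to 38767. It had 1850 detected genes, with a range from 429 to 5985. The mitochondrial share of UMIs, a measure of cell quality and of mitochondrial content, had a median of 1.67% in AP_8 and of 6.91% in the named cells outside the AP clusters. It was below the median of the library's named cells in 15 of 15 libraries, and 1 AP_8 cell reached 20%. AP_8 cells were shallower than the named cells around them in 12 of 15 libraries. Since the clusters were drawn from the same cells' genes, these contrasts describe AP_8 and were not tested.

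Against its nearest relatives in the same libraries, AP_8 differed from AP_9 in depth in both directions. In the 13 libraries with at least 10 cells of both, the AP_8 median UMI number was the higher in 9 and the AP_8 median gene number the lower in 8. The differences in median UMIs ran from -2775 to 2781. AP_8 was the shallower in every thermoneutral library compared and in replicate 2 of 2-day cold (5163 against 7938). It was the deeper in the other 2-day libraries and in every room-temperature and 7-day library compared. This difference in depth thus went with housing. The mitochondrial share was lower in AP_8 than in AP_9 in 12 of the 13 libraries, with a median difference of -0.437 percentage points. It was below that of AP_26 in all 11 libraries that could be compared, and AP_8 cells held a median of 1.66 times the UMIs of AP_26 cells there. AP_25 cells were deeper than AP_8 in 7 of 8 libraries. The mitochondrial share of AP_8 was close to that of AP_25, lower in 6 and higher in 2 of them. The median difference was -0.042 percentage points.

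AP_8 was not divided further by the deposited clusterings. In the table of named cells at least 99.3% of AP_8 cells stayed in 1 cluster at each of the 8 resolutions. At resolutions of 0.1 and 0.4 that cluster also held all 992 AP_9 and all 271 AP_25 cells, but no AP_26 cell. From 0.6 upwards AP_8 stood alone, with AP_8 making up 95.9% or more of the cluster. The names follow the clusters at a resolution of 1.2, so the 100% found there holds by definition and is no separate check. The clustering of all cells did not separate AP_8. There, 1001 of 1002 AP_8 cells lay in 1 cluster at all 8 resolutions, and at a resolution of 1.8 this cluster, number 13, also held 971 AP_9, all 271 AP_25 and 2 AP_26 cells. AP_8 was the most common name in cluster 13, at 44.2% of its 2267 named cells, and AP cells together made up 99.0%.

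The share of AP_8 among named cells was higher after 7 days of cold than at thermoneutrality, while a rise of like size after 2 days missed the threshold after adjustment. At thermoneutrality, replicates 1 to 4 held 4.71% (95% Wilson interval 4.07 to 5.43), 1.31% (0.636 to 2.68), 0.866% (0.496 to 1.51) and 1.10% (0.759 to 1.58) AP_8 cells. At room temperature they held 2.20% (1.60 to 3.02), 1.79% (1.38 to 2.32), 2.67% (2.04 to 3.49) and 5.88% (3.88 to 8.82). Thermoneutral replicate 1 lay above 3 of the 4 room-temperature libraries, and replicate 4 of room temperature lay above every thermoneutral library. After 2 days of cold, replicates 2 to 4 held 5.27% (4.46 to 6.21), 3.98% (3.11 to 5.07) and 10.7% (9.46 to 12.1). After 7 days of cold, replicates 1 to 4 held 4.21% (3.01 to 5.85), 10.7% (8.96 to 12.7), 3.93% (2.65 to 5.78) and 4.89% (3.28 to 7.24). Every cold library lay above thermoneutral replicates 2, 3 and 4, but thermoneutral replicate 1 lay within the range of both cold groups, so the groups overlapped.

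**Figure D1:**
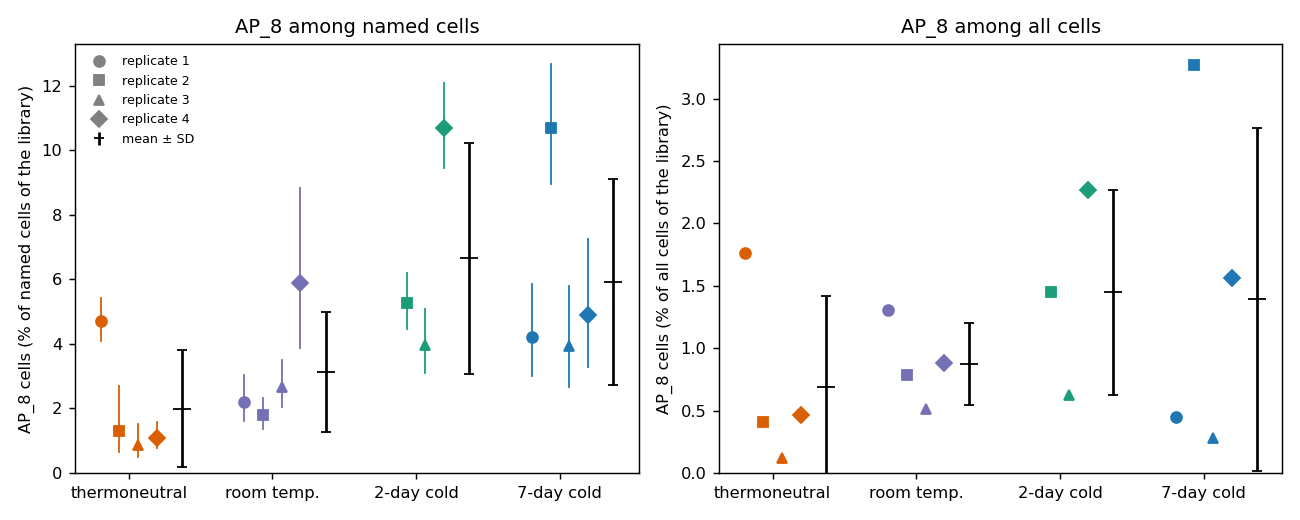
AP_8 cells as a percentage of the named cells (left, with 95% Wilson intervals) and of all cells (right) of each library, by housing; marker shapes are replicate numbers and black bars are mean ± SD over libraries. On the left the cold libraries lie between 3.93% and 10.7%, and thermoneutral replicate 1, at 4.71%, lies among them.

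The means were 1.99% ± 1.82 (SD, n = 4) at thermoneutrality, 3.14% ± 1.87 (n = 4) at room temperature, 6.65% ± 3.57 (n = 3) after 2 days and 5.93% ± 3.19 (n = 4) after 7 days of cold. The log2 odds of the shares of 27 named clusters were tested in 1 limma model. For 7-day cold against thermoneutral housing the AP_8 log2 odds ratio was 1.84 ± 0.61 (SE, 95% interval 0.54 to 3.13), with a Benjamini-Hochberg adjusted p of 0.0290. Of the 27 clusters, 9 were called higher in that comparison, a background of 33.3%, so a call upwards was common among the named clusters. For 2-day cold against thermoneutral housing the AP_8 ratio was 2.00 ± 0.66 with an adjusted p of 0.0564, where 3 of 27 clusters were called, 11.1%. The estimate for 2 days was thus as large as that for 7 days but missed the threshold. Before adjustment the limma p-values were alike, 0.00836 for 2 days and 0.00872 for 7 days. They parted only through the adjustment within each comparison, where 8 of 27 clusters for 2 days and 14 for 7 days had an unadjusted p below 0.05. The call for 7 days alone is therefore no sign of a stronger change than after 2 days. Shares add up to the whole, so a higher AP_8 share cannot be told apart from fewer cells of the other named clusters.

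The call after 7 days rested on the denominator and on single libraries. With the share of all cells in place of named cells the log2 odds ratio was 0.98 (limma, adjusted p = 0.333), and with the named cells outside the smooth muscle clusters it was 1.04 (adjusted p = 0.111). It also missed the threshold without thermoneutral replicate 3 (1.55, adjusted p = 0.0853), thermoneutral replicate 4 (1.66, adjusted p = 0.0993) or 7-day cold replicate 2 (1.49, adjusted p = 0.0935). Without thermoneutral replicate 1, which lay apart from its group, 2-day cold passed as well, with a ratio of 2.53 and an adjusted p of 0.0145.

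As a percentage of all cells, AP_8 made up 1.76%, 0.408%, 0.120% and 0.467% of thermoneutral replicates 1 to 4 and 1.30%, 0.787%, 0.510% and 0.881% of the room-temperature ones. It made up 1.45%, 0.626% and 2.27% of replicates 2 to 4 of 2-day cold, and 0.449%, 3.27%, 0.280% and 1.56% of replicates 1 to 4 of 7-day cold. On this scale the 7-day libraries spanned almost the whole range, and 7-day replicates 1 and 3 were among the 4 lowest of the 15 libraries while replicate 2 was the highest.

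Room temperature lay between thermoneutrality and cold in its mean, without a call on either side. Against thermoneutral housing the AP_8 log2 odds ratio was 0.84 ± 0.61 (limma, adjusted p = 0.580), and 0 of 27 named clusters were called, 0%, with 1 at an unadjusted p below 0.05. Against room temperature the ratio was 1.16 ± 0.66 after 2 days (adjusted p = 0.333, 0 of 27 clusters called and 3 at an unadjusted p below 0.05) and 1.00 ± 0.61 after 7 days (adjusted p = 0.194, 2 of 27 clusters called, 7.41%). The 2 cold groups differed by -0.16 ± 0.66 for 7 against 2 days, with a 95% interval from -1.56 to 1.24, which leaves room for a difference in either direction. There too 0 of 27 clusters were called, with 2 at an unadjusted p below 0.05. In the 3 comparisons without a call, edgeR called 0 of the 27 as well.

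Within every housing AP_8 cells of replicates 1 and 2 had a higher median UMI number than those of replicates 3 and 4, a split whose origin the labels do not give, so the changes were also taken within each. The AP_8 log2 odds for 7-day cold against thermoneutral housing were higher by 1.46 within replicates 1 and 2 and by 2.21 within replicates 3 and 4. For 2-day cold the values were 1.07, from replicate 2 alone on the cold side, and 2.81. The room-temperature difference from thermoneutral housing had opposite signs, -0.38 and 2.05. The excess of 7-day cold over room temperature was 1.84 in replicates 1 and 2 and 0.15 in replicates 3 and 4.

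The other AP clusters gave estimates in the same direction as AP_8 after 7 days of cold. AP_26 was higher by 2.60 ± 0.72 on the log2 odds scale (adjusted p = 0.0163), while AP_25 at 2.60 ± 1.00 (adjusted p = 0.0501) and AP_9 at 1.02 ± 0.61 (adjusted p = 0.162) did not pass. At room temperature AP_9 had a negative estimate, -0.61 ± 0.61, against the positive one of AP_8, and neither passed. These comparisons share the thermoneutral libraries.

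**Figure D2:**
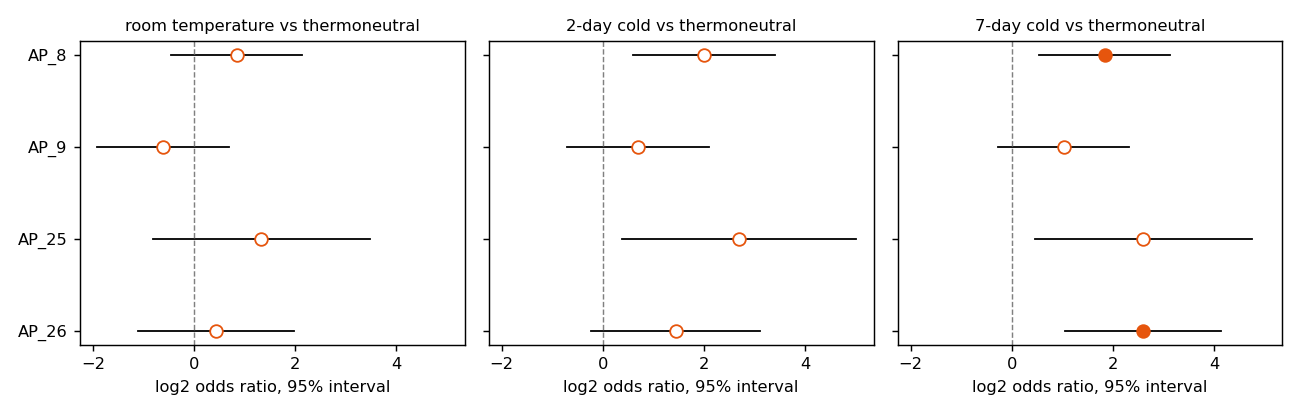
Log2 odds ratio of the share of named cells for the 4 AP clusters in each housing against thermoneutral housing, with 95% intervals; filled points have a limma adjusted p below 0.05. AP_8 is filled only in the panel of 7-day cold, at 1.84, together with AP_26 at 2.60.

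Whether AP_8 moved apart from its sister clusters was asked directly through its share of AP cells. At thermoneutrality AP_8 made up 32.1% (95% Wilson interval 28.3 to 36.1), 21.2% (10.7 to 37.8), 21.8% (12.9 to 34.4) and 47.5% (35.3 to 59.96) of the AP cells of replicates 1 to 4. At room temperature it made up 45.7% (35.3 to 56.5), 46.6% (37.9 to 55.6), 31.1% (24.5 to 38.5) and 61.8% (45.0 to 76.1). The room-temperature mean, 46.3% ± 12.5 (SD, n = 4), lay above the thermoneutral mean of 30.7% ± 12.3 (n = 4), and the groups overlapped. After 2 days of cold the share was 36.4% (31.7 to 41.5), 39.6% (32.2 to 47.5) and 53.9% (49.1 to 58.6) in replicates 2 to 4. After 7 days it was 33.3% (24.8 to 43.1), 52.5% (45.9 to 59.1), 30.8% (21.6 to 41.7) and 26.1% (18.1 to 36.2). The mean of 43.3% ± 9.31 (n = 3) after 2 days and of 35.7% ± 11.6 (n = 4) after 7 days fell between the other housings.

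The 6 pairs of housings were compared by an exact two-sided permutation test over libraries, which with these numbers of libraries could not give a call. The smallest p it allows is 0.0286 for 4 against 4 libraries and 0.0571 for 3 against 4, and the smallest adjusted p over the 6 pairs is 0.0571, so its p-values say nothing about whether the share was stable. The difference in log2 odds was 0.98 for room temperature, 0.82 for 2-day cold and 0.34 for 7-day cold against thermoneutral housing, with exact p-values of 0.2, 0.229 and 0.514. Against room temperature it was -0.17 after 2 days and -0.64 after 7 days, and between 7 and 2 days -0.48, with exact p-values of 0.743, 0.314 and 0.343. Adjusted over the 6 pairs, the p-values ran from 0.514 to 0.743, and 0 of the 6 had an unadjusted p below 0.05. A limma fit over the 4 AP clusters, which has no such floor, gave adjusted p-values from 0.178 for room temperature against thermoneutral housing to 0.869 for 2-day cold against room temperature. Single libraries decided the cold values: the 7-day difference from thermoneutral housing was 0.0034 without 7-day replicate 2 and 0.70 without thermoneutral replicate 4, with 0.14 and 0.15 without thermoneutral replicates 2 and 3 and 0.54 without 7-day replicate 4. The 2-day difference was 0.51 without 2-day replicate 4.

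**Figure D3:**
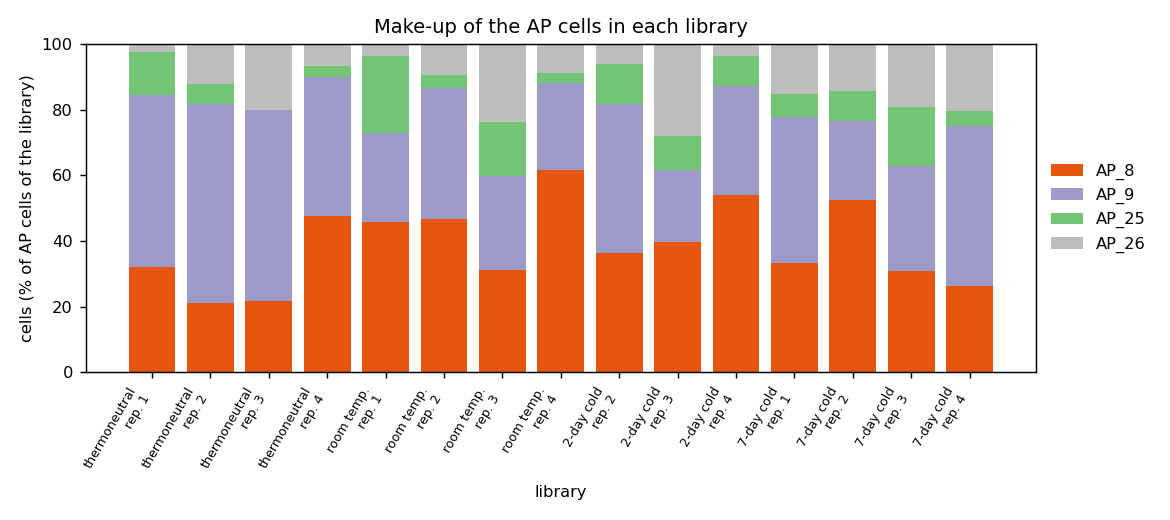
Make-up of the AP cells of each library in percent, stacked by AP cluster, with AP_8 at the bottom. AP_8 takes between 21.2% and 61.8% of the AP cells, and AP_9 is the most numerous of them in 7 of the 15 libraries.

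AP_8 was the most numerous AP cluster in 8 of 15 libraries and AP_9 in the other 7. Per AP_9 cell there were 0.613, 0.35, 0.375 and 1.12 AP_8 cells in thermoneutral replicates 1 to 4 and 1.68, 1.17, 1.09 and 2.33 in the room-temperature ones. All but 1 thermoneutral library had fewer AP_8 than AP_9 cells, and all room-temperature libraries had more. The difference between these housings in the log2 ratio of AP_8 to AP_9 was 1.41, with an exact permutation p adjusted over the 6 pairs of 0.343, in a test that could not pass here either. The ratio was 0.806, 1.79 and 1.62 after 2 days of cold and 0.75, 2.19, 0.96 and 0.535 after 7 days, with libraries on both sides of equal numbers in each.

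Depth stood beside these shares. The AP_8 median UMI number was 6413, 16037, 3604.5 and 4266.5 in thermoneutral replicates 1 to 4 and 10475, 8146, 4200 and 6987 at room temperature. It was 5163, 5076 and 3614 in replicates 2 to 4 of 2-day cold, and 5678, 9423.5, 4771 and 3814 in replicates 1 to 4 of 7-day cold. The highest value came from the 7 AP_8 cells of thermoneutral replicate 2, and the housings overlapped. Over libraries with at least 10 AP_8 cells, which leaves thermoneutral replicate 2 out, 0 of 18 exact permutation tests of UMIs, genes and mitochondrial share between housings were called. None of the 18 had an unadjusted p below 0.05, and the smallest was 0.171. The smallest adjusted p these numbers of libraries allow over the 18 is 0.0686, so no call was possible.

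**Figure D4:**
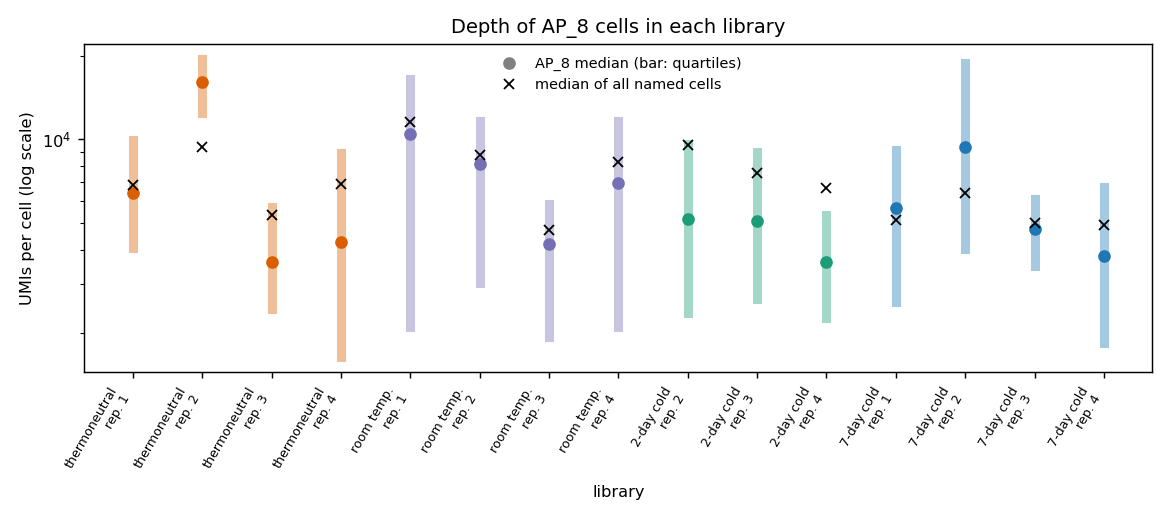
Median UMIs per AP_8 cell in each library on a log axis, with bars from the lower to the upper quartile and a cross at the median of all named cells of that library. In 2-day cold the AP_8 medians of 5163, 5076 and 3614 lie well under the crosses.

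Relative to the named cells around them, AP_8 cells were shallow after 2 days of cold and in 2 of the thermoneutral libraries. The AP_8 median was 0.933, 1.70, 0.673 and 0.619 times that of the library's named cells in thermoneutral replicates 1 to 4 and 0.909, 0.927, 0.894 and 0.846 times at room temperature. It was 0.540, 0.670 and 0.539 times in replicates 2 to 4 of 2-day cold, and 1.11, 1.47, 0.955 and 0.773 times in replicates 1 to 4 of 7-day cold. The ratio in each 2-day library was below that in each 7-day and room-temperature library, but thermoneutral replicate 4 lay within the 2-day range and thermoneutral replicate 3 just above it. When shares were taken only among cells at or above the median of 7085 UMIs, the AP_8 log2 odds ratio to thermoneutral housing fell from 2.00 to 0.78 after 2 days and from 1.84 to 1.41 after 7 days, and neither passed (limma, adjusted p = 0.662 and 0.154). These ratios rest on few AP_8 cells in several libraries. The limit left 78, 6, 3 and 9 in thermoneutral replicates 1 to 4 and 52, 19 and 23 in 2-day replicates 2 to 4. It left 13, 64, 2 and 6 in 7-day replicates 1 to 4. AP_8 made up 18.2% of the shallower named cells of 2-day cold replicate 4 and 2.30% of its deeper ones. The share of AP_8 was higher among the shallower cells in 12 of 15 libraries.

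Replicate 1 of 2-day cold could be judged only through cluster 13, which mixes AP_8 with the other AP cells and for which the aim of a cluster with at least 50% AP_8 cells was not met. That library had 143 cells in cluster 13, all unnamed, or 1.43% of its cells, beside 3.88%, 1.19% and 4.36% in replicates 2 to 4. Cluster 13 took 5.31%, 1.69%, 0.420% and 0.935% of thermoneutral replicates 1 to 4, and 2.81%, 1.56%, 1.32% and 1.34% of the room-temperature ones. It took 1.22%, 5.45%, 0.782% and 5.36% of the 7-day libraries, so that all 4 housings overlapped.

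With limma over the 55 clusters of all cells, the log2 odds ratio of cluster 13 to thermoneutral housing was 0.28 ± 0.84 for room temperature, 0.76 ± 0.84 for 2-day cold and 0.76 ± 0.84 for 7-day cold. Its adjusted p-values for these were 0.940, 0.720 and 0.632. Single libraries moved these values: without thermoneutral replicate 1 both cold ratios were 1.42, and without thermoneutral replicate 3 both were 0.18. None of its 6 comparisons was called, 0 had an unadjusted p below 0.05, and edgeR's quasi-likelihood test called 0 as well. In these comparisons with thermoneutral housing 0%, 9.09% and 0% of the 55 clusters were called.

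The cell-cycle phase calls are the authors' labels, made from scores over S-phase (DNA synthesis) and G2M (division) genes. In the table of named cells 54.6% of AP_8 cells were called G1, 24.95% S and 20.5% G2M, and 45.4% were therefore S or G2M. The calls of the table of all cells gave 11.1% S or G2M in the same cells, and the 2 tables agreed for 65.5% of AP_8 cells. Scores of 0.1 or more were found in 20 of 1002 cells, 2 of them thermoneutral, 3 at room temperature, 10 in 2-day cold and 5 in 7-day cold, a limit chosen after the scores had been seen. Most S and G2M calls thus rest on scores below 0.1, and they are reported as calls and not as dividing cells.

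The share of AP_8 cells called S or G2M did not differ between housings in the test chosen for it. It was 40.9%, 0%, 33.3% and 42.9% in thermoneutral replicates 1 to 4, the 0% coming from 7 cells, and 37.8%, 45.5%, 66.7% and 33.3% at room temperature. It was 36.8%, 52.5% and 52.0% in replicates 2 to 4 of 2-day cold and 51.5%, 39.5%, 70.8% and 39.1% in the 7-day libraries, which overlapped with the thermoneutral ones. With limma over 19 named clusters, and libraries under 10 AP_8 cells left out, the log2 odds ratio to thermoneutral housing was 0.38 ± 0.49 for room temperature, 0.44 ± 0.52 for 2-day cold and 0.64 ± 0.49 for 7-day cold. The adjusted p-values were 0.693, 0.589 and 0.257, and of the 6 AP_8 comparisons 0 were called and 0 had an unadjusted p below 0.05. Across the clusters 0% were called at room temperature and in 2-day cold, and 52.6% in 7-day cold, 1 of them higher. The cluster called higher was AP_9, with a ratio of 1.14 ± 0.35 (limma, adjusted p = 0.00961).

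After these library values had been seen, S and G2M calls were looked at apart. In the cold against thermoneutral housing their AP_8 estimates had opposite signs. Each cell has 1 call, so a higher share of S leaves less room for G2M and G1, and the opposite signs are not separate results. Of AP_8 cells, 14.2% (95% Wilson interval 9.81 to 20.1), 0% (0 of 7 cells, which allows a share of up to 42.9%), 8.33% (1.49 to 35.4) and 10.7% (3.71 to 27.2) were called S in thermoneutral replicates 1 to 4. At room temperature 13.5% (5.91 to 28.0), 18.2% (10.2 to 30.3), 37.3% (25.3 to 51.0) and 14.3% (4.98 to 34.6) were called S. Room-temperature replicate 3 stood above the other room-temperature libraries, of which replicate 1 overlapped with the thermoneutral range. After 2 days of cold 21.1% (15.0 to 28.7), 42.6% (31.0 to 55.1) and 30.4% (24.8 to 36.7) were called S in replicates 2 to 4. After 7 days 39.4% (24.7 to 56.3), 27.2% (19.9 to 36.0), 50% (31.4 to 68.6) and 21.7% (9.66 to 41.9) were. Every cold library lay above every thermoneutral one, although intervals overlapped, and not only those of small libraries. The interval of thermoneutral replicate 1, with 176 AP_8 cells, overlapped with those of replicate 2 of 2-day and of 7-day cold, with 133 and 114.

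**Figure D5:**
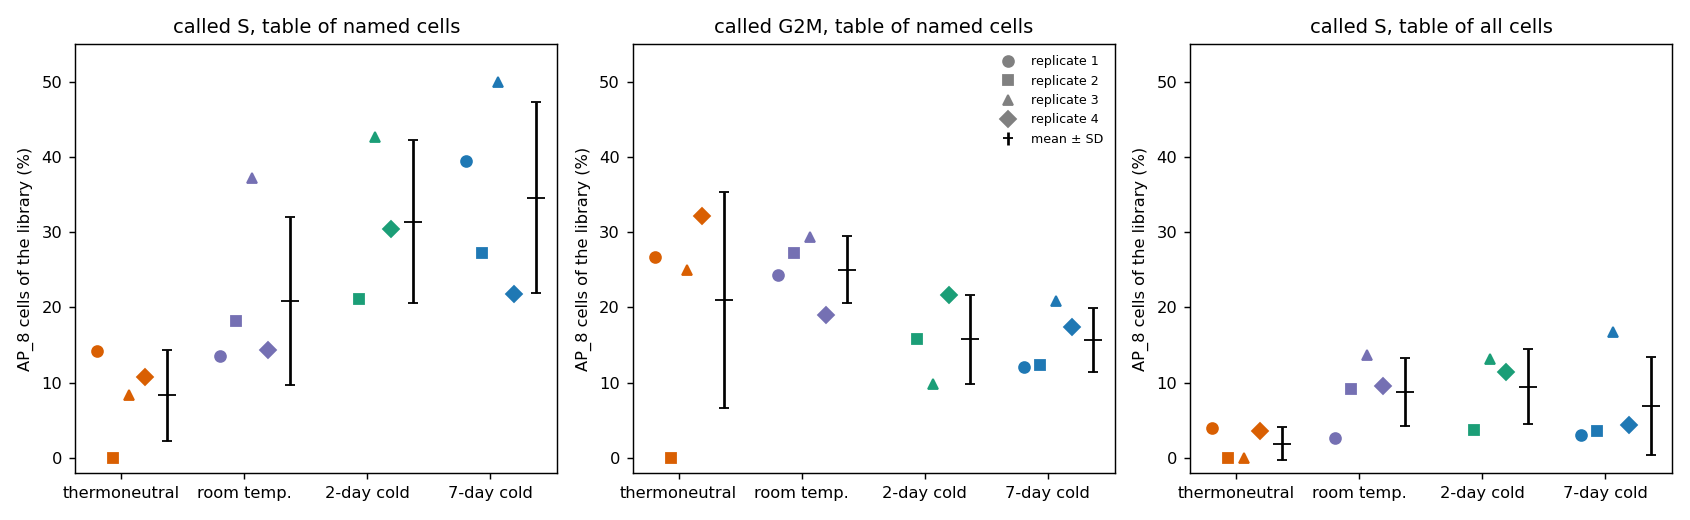
AP_8 cells of each library called S (left) and G2M (middle) in the table of named cells, and called S in the table of all cells (right), in percent, with mean ± SD over libraries in black. On the left the cold libraries lie at 21.1% to 50% and the thermoneutral ones at 0% to 14.2%, while on the right they overlap.

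In limma the log2 odds ratio of S calls in AP_8 to thermoneutral housing was 1.85 ± 0.47 for 7-day cold (adjusted p = 0.00328) and 1.62 ± 0.50 for 2-day cold (adjusted p = 0.0299), with 3 thermoneutral libraries in the fit. In each of these comparisons 3 of 19 clusters were called, 15.8%, and the 3 were AP_8, AP_9 and AP_26. Room temperature had a ratio of 0.84 ± 0.47 (adjusted p = 0.410), where 1 of 19 clusters was called, 5.26%. Against room temperature the ratios were 0.79 ± 0.47 for 2 days and 1.01 ± 0.44 for 7 days, and between 7 and 2 days 0.23 ± 0.47. None of these 3 was called, and 0% of the clusters were called in each.

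G2M calls of AP_8 had negative estimates in the cold, -1.14 ± 0.49 after 2 days (limma, adjusted p = 0.113, with 0% of the clusters called) and -1.05 ± 0.46 after 7 days (adjusted p = 0.0590, with 42.1% called). Both missed the threshold. Against room temperature the G2M estimates were -0.90 ± 0.46 and -0.82 ± 0.43, with 5.26% and 36.8% of the clusters called, and between 7 and 2 days 0.08 ± 0.46, with 26.3% called. In each of these comparisons 0 clusters were called higher, so every called cluster was lower in G2M calls. AP_8 was not among the called clusters. The mean G2M share was 27.9% ± 3.73 (SD, n = 3) at thermoneutrality among libraries of at least 10 AP_8 cells and 15.7% ± 4.23 (n = 4) after 7 days.

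The S difference did not hold with the phase calls of the table of all cells, in which the AP_8 ratio to thermoneutral housing was 0.66 for 7-day cold (limma, adjusted p = 0.551) and 1.07 for 2-day cold (adjusted p = 0.367). By those calls 3.98%, 0%, 0% and 3.57% of AP_8 cells were S in the thermoneutral libraries and 3.03%, 3.51%, 16.7% and 4.35% in the 7-day ones. Leaving out a room-temperature or 2-day library, or the unfitted thermoneutral replicate 2, kept the 7-day ratio at 1.85 and changed only the spread. The 7-day ratio stayed past the threshold without each library in turn. For 2-day cold it lost the call without thermoneutral replicate 1 (1.74, adjusted p = 0.0535), thermoneutral replicate 3 (1.55, adjusted p = 0.101), thermoneutral replicate 4 (1.59, adjusted p = 0.0764), 2-day cold replicate 3 (1.25, adjusted p = 0.168) or replicate 4 (1.64, adjusted p = 0.102).

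S calls went with depth inside AP_8. Pooled over libraries, 33.1% of 166 cells under 2000 UMIs, 32.2% of 233 cells from 2000 to 4000, 22.6% of 301 cells from 4000 to 8000 and 17.2% of 302 cells from 8000 upwards were called S. In 9 of the 11 libraries with at least 5 S cells, the S cells had a lower median UMI number than the G1 cells. Within each of these depth classes the pooled S share was lower at thermoneutrality than in either cold group, for example 18.5% of 54 cells from 2000 to 4000 UMIs against 37.6% of 125 after 2 days and 44.8% of 29 after 7 days. Cells from 8000 upwards gave 6.10% of 82 thermoneutral cells, 22.1% of 77 after 2 days and 25.6% of 78 after 7 days. The class under 2000 UMIs held only 11 thermoneutral cells, 2 of them called S. In that class room temperature, at 40% of 35 cells, lay above 2-day cold (30.2% of 86) and 7-day cold (38.2% of 34). In the deeper classes room temperature lay below both cold groups. These pooled shares are descriptions, since 1 library gives most of the AP_8 cells in 3 of the 4 housings. With the fit limited to cells of 2000 to 4000 UMIs, and the minimum lowered from 10 to 5 cells per library, the ratios were 1.66 and 1.91 for 2 and 7 days (limma, adjusted p = 0.294 and 0.0895), of about the same size but past no threshold. With the lower minimum alone, at all depths, they were 1.90 and 2.13 (limma, adjusted p = 0.0362 and 0.00275). That fit took in thermoneutral replicate 2, with 0 of 7 cells called S. The fit limited by depth did not hold this library, whose lower quartile was 12474 UMIs, so the 2 fits differ in more than depth. The part of depth in the S calls was not tested beyond these limits on depth.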

How the data were processed

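Per the submitters' processing notes, reads were processed with STAR and Cell Ranger 3.0.1 and the mm10 build. How cells were filtered, integrated and clustered is not given in the sources used here. Deposited by the authors were, per cell, UMI and gene counts without normalisation, the mitochondrial fraction (given here in percent), S and G2M scores with phase calls, cluster numbers and cluster names. Since gene values were not analysed here, doublets could not be called, nor cells thinned to equal depth. Libraries were the unit of replication; the labels do not say whether they came from separate mice, so p-values measure only the spread between these samples. Over the cell numbers of all named clusters, no 2 libraries of a housing agreed within sampling noise (lowest chi-square per degree of freedom 3.84); for the AP_8 share alone, Wilson intervals of several libraries overlap.

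Log2 odds of cluster shares, computed after adding 0.5 cells to both sides of the odds, entered 1 model of all 4 housings in limma 3.58.1 (R 4.3.3), for clusters that averaged 10 or more cells a library, with Benjamini-Hochberg adjustment within a comparison (threshold 0.05, two-sided). AP_8 among AP cells, and depth, were compared with exact permutation tests (scipy 1.17.1). edgeR 4.0.16 was an alternative. Leaving out a library of a housing outside a comparison cannot change its estimate, only its p-value. A call kept in such a run is no separate check. AP_8 was always described, AP_9, AP_25 and AP_26 as its comparison, and other clusters by count only. The limma step was run on simulated data for cluster shares and for S or G2M calls together, but not for S or G2M calls taken apart. The outcome is not reported here, so it lends no weight to the calls above. Thermoneutral replicates 2 to 4 held 7 to 28 AP_8 cells, which limits their precision. Wilson intervals and limits for a share of 0 (3 cells) cover counting error only. AP_8 and the lists and tests were chosen with earlier results of these data known. Deviations of same-numbered libraries correlated above 0.1 in every pair for room temperature and 2-day cold (0.391, 0.41 and 0.455), which counts as pairing there, but not for the other pairs of housings. The limit of 0.1 is a low one, which 19 of 63 differently numbered pairs passed too.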

Additional observations from a re-analysis of the deposited data

Results flagged for a closer look

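In 2 of the 21 sets of library values that could be examined, 1 library stood far from the rest of its housing, by a gap test that chance alone triggers in about 1 of 20 sets. Thermoneutral replicate 1 had 4.71% AP_8 among named cells, while the other thermoneutral libraries had 0.866% to 1.31%. It also held the most named cells, 3739. Replicate 2 of 7-day cold had 10.7%, while the other 7-day libraries had 3.93% to 4.89%. Without thermoneutral replicate 1 the AP_8 log2 odds ratio of 7-day cold to thermoneutral housing was 2.37, and without replicate 2 of 7-day cold it was 1.49 (limma, adjusted p = 0.0935). The reason these libraries stand apart was not tested.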

How the results depend on the processing

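For the share of named cells, 7-day cold against thermoneutral housing kept its call in 18 of 27 tested runs. It lost the call with edgeR (1.54, adjusted p = 0.0567), centred log ratios (1.04, 0.0942), the share of all cells (0.98), named cells outside the smooth muscle clusters (1.04), cells of 7085 UMIs or more (1.41) and, chosen after seeing the data, libraries with at least 20 AP_8 cells (1.31, adjusted p = 0.194). Leaving out each library gave 1.49 to 2.37. Here and below, leaving out a library of another housing changes no ratio, only p-values. For 2-day cold against thermoneutral housing 4 of 27 passed, with no minimum of cells (2.00, adjusted p = 0.0469) and when thermoneutral replicate 1, replicate 4 of room temperature or replicate 2 of 7-day cold was left out; leaving out libraries gave 1.56 to 2.53. Room temperature against thermoneutral housing was -0.38 in replicates 1 and 2 but 2.05 in replicates 3 and 4, and 7-day cold against room temperature 1.84 and 0.15. The difference of 7-day against 2-day cold turned to 0.63 among cells of 7085 UMIs or more, and leaving out libraries gave -0.51 to 0.28. For the share of AP cells no alternative gave a call, but most were permutation tests that could not give one; without single libraries 7-day and 2-day cold against thermoneutral housing gave 0.0034 to 0.70 and 0.51 to 1.17; 7-day cold against thermoneutral housing turned to -0.037 among the deeper cells and -0.26 with at least 20 AP_8 cells, 2-day cold against room temperature ran from -0.47 to 0.13 without single libraries, and 7-day against 2-day cold was 0.38 within replicates 1 and 2. For S or G2M calls together none of 22 alternatives gave a call, and room temperature against thermoneutral housing ran from -0.020 to 0.62 without single libraries; the limit to cells of 2000 to 4000 UMIs could not be fitted. All S results were chosen after seeing the data. S calls kept their call in 20 of 24 settings for 7-day and 14 of 24 for 2-day cold against thermoneutral housing; the losses were the calls of the table of all cells (0.66 and 1.07), cells of 2000 to 4000 UMIs (1.91 and 1.66) and cells of 7085 UMIs or more (2.38 and 2.09), both with a minimum of 5 in place of 10 cells, which alone gave 2.13 and 1.90 and kept both calls, exact permutation on AP_8 alone (1.85 and 1.62, adjusted p = 0.171 and 0.2, where the smallest possible is 0.0686) and, for 2-day cold, at least 20 cells (1.55, adjusted p = 0.0722). Without single libraries they ran from 1.54 to 2.12 and from 1.25 to 1.99, and 7-day against 2-day cold from -0.13 to 0.60. With the calls of the table of all cells, 2-day cold against room temperature was -0.042, 7-day cold against room temperature -0.45 and 7-day against 2-day cold -0.41. Cluster 13 had no call in any setting; room temperature against thermoneutral housing was -0.25 with edgeR and -0.30 to 0.94 without single libraries, both cold ratios ran from 0.18 to 1.42, and 7-day cold gave 1.60 (adjusted p = 0.0902) over clusters that hold named cells. Where a value turned or a call was lost, the cause was not tested. With a replicate block, the AP_8 share of named cells gave 1.84 (limma, adjusted p = 0.0276) for 7-day and 2.09 (0.0645) for 2-day cold against thermoneutral housing. S calls gave 2.00 and 1.79, and no call changed. Same-numbered libraries correlated above 0.1 in 12 of 21 pairs and differently numbered ones in 19 of 63, with median correlations of 0.22 and -0.0355. Of 15 libraries, 7 correlated best with their own number. All 3 same-numbered pairs were above 0.1 for room temperature and 2-day cold, and not all for any other pair of housings. There the block gave 1.25 for 2-day cold against room temperature (limma, adjusted p = 0.217) for the share of named cells.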
